A study of Mus musculus with 24 samples.

Results

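Hmox1, Nqo1 and 8 further genes of the NRF2 antioxidant pathway (Gclc, Gclm, Txnrd1, Srxn1, Gsr, Nfe2l2, Keap1 and Bach1) were followed through 22 RNA-seq libraries of a mouse hypothalamic cell line. These 10 of the 56941 gene IDs counted were taken by name, and all 10 were among the 13281 genes with enough counts to be tested. Hmox1 and Nqo1 were singled out because the first is higher and the second lower in high glucose, so their difference between the media is given as a description with no test. The other 8 were listed for their place in the pathway, and the question was which way they went.

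NRF2, the product of Nfe2l2, is a transcription factor that KEAP1 holds in the cytoplasm and hands to a ubiquitin ligase for degradation. Oxidants and electrophiles modify KEAP1, after which NRF2 pairs with a small MAF protein in the nucleus and switches on genes that carry an antioxidant response element. BACH1, a repressor that heme removes from DNA, occupies many of the same elements and is known above all for holding down Hmox1. In neurons and glia the pathway is known for glutathione synthesis, thioredoxin recycling and the removal of quinones and heme.

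The cells are labelled only as a hypothalamic cell line, which the series design describes as neuronal and from adult mice. They were cultured in normal (NG) or high glucose (HG) without mogroside V, a sweet-tasting compound from monk fruit, or with it at 3 dose labels. The 8 groups were read from the sample titles as NGC, NG1, NG2 and NG3 in normal glucose and HGC, HG1, HG2 and HG3 in high glucose, with C taken for control and 1 to 3 for the dose labels. The design lists 15, 60 and 160 µM, but which number stands for which concentration was not stated, nor were the glucose concentrations or the culture time. Each group had 3 deposited files. The file of HG2 replicate 3 was identical to that of HG3 replicate 2 on all 56946 lines, and both were left out, so n = 2 in HG2 and HG3 and n = 3 in the other groups. Batches and the origin of the replicates are not labelled. The medium and a batch that ran with it therefore cannot be told apart, and the p-values reflect a spread between libraries that may be technical only.

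The libraries held 3396249 to 7773074 gene counts. Of 14 neuronal markers 9 were tested, led by Ncam1 (mean 358 CPM in normal and 391 CPM in high glucose, where CPM scales a gene's counts to the total gene counts of its library), but Rbfox3, Snap25 and Syt1, which define mature neurons, stayed at or under 1.09 CPM in every library, and 1 of 14 hypothalamic neuropeptide genes reached the level for testing. The 9 fibroblast and pericyte markers summed to 6790 to 8730 CPM in normal and 7850 to 8740 CPM in high glucose. Col1a2 led this sum (mean 3141 CPM in normal and 3492 CPM in high glucose), while Lum and Rgs5 were too low to be tested. Microglia and macrophages can express Hmox1 strongly. Of their 12 markers Itgam was at 0 in every library, and the 11 without Tmem119, a gene that mesenchymal cells also express, summed to 8.11 to 19.5 CPM in normal and 12.5 to 27 CPM in high glucose. Some markers moved with the medium. Csf1r, a receptor of macrophages, rose from 5.30 ± 1.79 to 9.59 ± 4.61 CPM (edgeR adjusted p = 0.00533) and was the only 1 of 4 tested microglia and macrophage markers to pass. Map2, 1 of 9 tested neuronal markers, fell by 0.39 ± 0.08 on the log2 scale, and Col1a1 and Acta2, 2 of 7 tested fibroblast and pericyte markers, rose by 0.23 ± 0.06 and 0.24 ± 0.06. Beside these, 10.1% of all tested genes passed between the media. The part of these markers in the differences below was not tested.

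The antioxidant response element has the core TGACNNNGC, where N is any base. RefSeq promoter windows of 300 bases, from 250 before to 50 after the start site, were given for 7 of the 10 genes, in 9 windows on build GRCm38.p6, and are shown for Nqo1 and for the 4 genes with a match. The core, searched on both strands, was found in 4 of the 7 genes and in 12.4% of all 32851 windows of that length. The gene counts were made on GRCm39, so these coordinates belong to the sequences and not to the counts. The windows lie at chr8:107403156-107403455 for Nqo1 (minus strand), chr2:75704614-75704913 for Nfe2l2 (minus strand), chr3:122245307-122245606 for Gclm (plus strand), chr10:82858956-82859255 for Txnrd1 (plus strand, 1 of its 3 windows) and chr2:152105274-152105573 for Srxn1 (plus strand). They are written 5′ to 3′ on the gene's strand, with the bases of a match in capitals.
Nqo1: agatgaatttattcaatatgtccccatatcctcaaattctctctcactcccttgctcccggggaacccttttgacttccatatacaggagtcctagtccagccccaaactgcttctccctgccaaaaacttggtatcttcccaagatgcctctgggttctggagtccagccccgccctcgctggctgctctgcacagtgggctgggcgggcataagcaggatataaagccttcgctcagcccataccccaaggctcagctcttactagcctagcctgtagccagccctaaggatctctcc
Nfe2l2: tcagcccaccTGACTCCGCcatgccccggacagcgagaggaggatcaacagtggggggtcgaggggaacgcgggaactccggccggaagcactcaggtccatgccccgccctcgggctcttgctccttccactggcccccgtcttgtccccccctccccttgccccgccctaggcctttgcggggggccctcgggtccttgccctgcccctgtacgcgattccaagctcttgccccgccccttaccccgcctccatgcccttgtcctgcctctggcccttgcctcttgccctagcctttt
Gclm: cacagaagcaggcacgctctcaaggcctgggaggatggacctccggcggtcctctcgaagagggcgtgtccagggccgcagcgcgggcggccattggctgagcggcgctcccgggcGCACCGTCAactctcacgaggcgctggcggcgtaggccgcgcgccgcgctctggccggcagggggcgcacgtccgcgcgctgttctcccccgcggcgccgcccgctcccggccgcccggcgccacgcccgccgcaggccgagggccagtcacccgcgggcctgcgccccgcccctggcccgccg
Txnrd1: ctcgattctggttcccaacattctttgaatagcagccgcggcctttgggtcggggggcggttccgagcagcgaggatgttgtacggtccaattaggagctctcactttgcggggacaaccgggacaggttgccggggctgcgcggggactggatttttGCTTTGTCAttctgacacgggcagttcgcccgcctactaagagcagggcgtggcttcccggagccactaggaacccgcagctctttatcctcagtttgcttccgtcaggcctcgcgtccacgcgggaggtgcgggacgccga
Srxn1: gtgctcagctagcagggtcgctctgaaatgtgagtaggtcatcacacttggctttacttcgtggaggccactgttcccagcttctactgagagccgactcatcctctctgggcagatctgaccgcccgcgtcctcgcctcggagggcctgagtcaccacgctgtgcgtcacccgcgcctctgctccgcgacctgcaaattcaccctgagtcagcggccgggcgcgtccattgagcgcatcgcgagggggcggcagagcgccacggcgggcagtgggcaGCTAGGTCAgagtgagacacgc
The Nfe2l2 window reads TGACTCCGC from base 240 before the start site. The matches of Gclm (TGACGGTGC, 134 bases before the start site), Txnrd1 (TGACAAAGC, 92 before) and Srxn1 (TGACCTAGC, at base 29 of the transcript) lie on the opposite strand, so they appear above as their reverse complements. No match was found in the windows of Nqo1, Keap1 and Bach1, which says only that these letters are absent there.

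Hmox1 encodes the inducible heme oxygenase, which breaks heme into biliverdin, carbon monoxide and iron. In normal glucose its level was 31.4, 11.9 and 13.8 CPM in NGC replicates 1 to 3, 14.6, 17.3 and 14.4 CPM in NG1, 13.6, 18.2 and 27.4 CPM in NG2, and 21.5, 12.1 and 17.3 CPM in NG3. In high glucose it was 47.8, 43.1 and 54.1 CPM in HGC, 28.2, 26.8 and 31.7 CPM in HG1, 55.5 and 46.7 CPM in HG2, and 37.3 and 33.8 CPM in HG3. Of the 10 high-glucose libraries, 8 lay above every normal-glucose library, while HG1 replicates 1 and 2 lay below NGC replicate 1. The means were 17.8 ± 6.14 CPM (SD, n = 12) in normal and 40.5 ± 10.4 CPM (SD, n = 10) in high glucose, a fitted 2.26-fold difference (log2 1.18 ± 0.14, estimate ± SE). These levels rested on 49 to 187 reads per library. In bulk RNA a change in the number of cells that express a gene cannot be told apart from a change in RNA per cell.

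Nqo1 encodes a quinone reductase that uses NADH or NADPH. Its level was 35.1, 30.02 and 35.0 CPM in NGC, 39.5, 33.8 and 30.2 CPM in NG1, 35.1, 38.5 and 40.5 CPM in NG2, and 43.2, 39.4 and 45.3 CPM in NG3. In high glucose it was 23.9, 27.8 and 18.8 CPM in HGC, 21.0, 27.6 and 16.7 CPM in HG1, 18.2 and 23.2 CPM in HG2, and 23.3 and 23.8 CPM in HG3. All 10 high-glucose libraries lay below all 12 normal-glucose libraries. The means were 37.1 ± 4.76 and 22.4 ± 3.75 CPM, and the fitted difference was -0.72 ± 0.10 on the log2 scale. Of all tested genes, 0.136% had every high-glucose library below every normal-glucose library and 0.783% had the reverse. Since Nqo1 was chosen for this difference, nothing is read from that share.

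**Figure D1:**
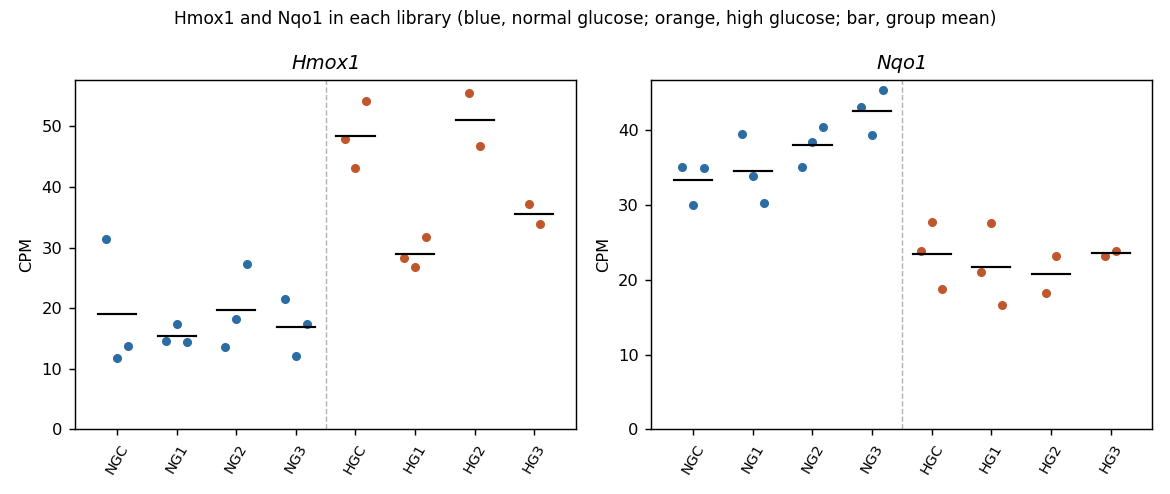
CPM of Hmox1 (left) and Nqo1 (right) in each of 22 libraries by group, with 1 point per library and a bar at the group mean. The Hmox1 points of high glucose lie between 26.8 and 55.5 CPM and overlap those of normal glucose in HG1, while the Nqo1 points of the media do not overlap.

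Within a library the ratio of Hmox1 to Nqo1 reads does not depend on library scaling. It ran from 0.306 in NG3 replicate 2 over a median of 0.434 to 0.894 in NGC replicate 1 in normal glucose. In high glucose it ran from 0.971 in HG1 replicate 2 over a median of 1.75 to 3.05 in HG2 replicate 1. Every high-glucose library thus had a higher ratio than every normal-glucose library. This follows from the choice of the pair and is given as a description.

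The Hmox1 difference was also fitted at each treatment level. The single levels were not tested against each other. Treated minus control groups did not pass (-0.19 ± 0.31, edgeR adjusted p = 0.911). High minus normal glucose was 1.32 ± 0.26 on the log2 scale in the controls, 0.91 ± 0.28 at dose label 1, 1.41 ± 0.29 at dose label 2 and 1.07 ± 0.30 at dose label 3. For Nqo1 the same 4 values were -0.50 ± 0.18, -0.66 ± 0.19, -0.86 ± 0.21 and -0.86 ± 0.21. Over all genes, 1.66% passed at dose label 1 (1.32% higher, 0.346% lower), 0.76% at dose label 2 (0.61% higher, 0.151% lower) and 0.919% at dose label 3 (0.678% higher, 0.241% lower), and none of the 8 other members did. NGC replicate 1 had the highest Hmox1 level of all normal-glucose libraries, and without it the control difference of Hmox1 was 1.91.

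Globin RNA, a sign of blood cells, also varied between libraries. The 4 globin genes summed to 6.93 to 340 CPM in normal and 7.38 to 72.7 CPM in high glucose, and the normal-glucose maximum without NG2 replicate 3 was 66.6 CPM. NG2 replicate 3, with 340 CPM, had the second highest Hmox1 level of its medium (27.4 CPM), whereas NGC replicate 1, with the highest, had 16.1 CPM of globin RNA. The part of globin RNA in the Hmox1 levels was not tested.

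The other 8 genes were tested in the same fit over all 13281 genes, as the mean of the 4 levels (edgeR's quasi-likelihood test with Benjamini-Hochberg adjustment and a threshold of 0.05). None of the 8 rose, 2 fell, Gsr and Nfe2l2, and 6 did not pass. Of the 8 log2 changes 6 were negative, with a median of -0.19 beside -0.01 over all tested genes. In this comparison 10.1% of all tested genes passed, 5.71% higher and 4.38% lower.

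Gsr encodes glutathione reductase, which uses NADPH to return oxidised glutathione to its reduced form. It had 33.8, 41.2 and 36.6 CPM in NGC, 44.5, 39.2 and 32.1 CPM in NG1, 36.4, 45.04 and 45.2 CPM in NG2, and 47.8, 48.2 and 31.7 CPM in NG3. It had 38.7, 20.7 and 33.9 CPM in HGC, 27.4, 33.2 and 27.0 CPM in HG1, 30.1 and 33.3 CPM in HG2, and 30.4 and 26.9 CPM in HG3. The media overlapped, with 6 of 10 high-glucose libraries below every normal-glucose library. Gsr fell from a mean of 40.1 ± 6.01 to 30.2 ± 4.99 CPM (log2 -0.41 ± 0.10, edgeR adjusted p = 0.00622), and passed in each of the 30 alternative fits, with adjusted p between 0.00109 and 0.0271.

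Nfe2l2, the gene of NRF2 itself, had 150.1, 122.97 and 151.1 CPM in NGC, 136.7, 128.9 and 135.1 CPM in NG1, 120.1, 132.3 and 122.3 CPM in NG2, and 120.6, 135.4 and 106.3 CPM in NG3. It had 109.1, 109.9 and 104.5 CPM in HGC, 130.5, 110.4 and 126.3 CPM in HG1, 100.9 and 120.3 CPM in HG2, and 95.7 and 115.6 CPM in HG3. The control groups did not overlap, while most treated libraries of the media did. The share of all genes whose control groups did not overlap was not counted. Nfe2l2 fell by 0.22 ± 0.06 on the log2 scale (edgeR adjusted p = 0.0197). It did not pass without HG2 replicate 1 (adjusted p = 0.105) or without HG3 replicate 1 (adjusted p = 0.0995), in a range of 0.00418 to 0.105 over 30 alternatives.

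Gclc and Gclm encode the catalytic and the modifier subunit of glutamate-cysteine ligase, the rate-limiting enzyme of glutathione synthesis. Gclc ran from 44.3 to 81.2 CPM in normal and from 46.0 to 65.3 CPM in high glucose (log2 -0.22 ± 0.09, edgeR adjusted p = 0.129). The lowest normal-glucose value was that of NG3 replicate 3, and without that library Gclc passed (log2 -0.26, adjusted p = 0.0200). Leaving out a library that goes against a difference favours a call, and without NG3 replicate 2 instead the log2 change was -0.16. Gclm ran from 42.4 to 89.3 CPM in normal and from 56.3 to 77.1 CPM in high glucose, with a log2 change of 0.04 ± 0.09 (adjusted p = 0.858) whose sign varied between fits.

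Txnrd1, the cytosolic thioredoxin reductase, ran from 97.8 to 183.0 CPM in normal and from 123.6 to 153.3 CPM in high glucose (log2 -0.06 ± 0.07, edgeR adjusted p = 0.678). Srxn1 encodes sulfiredoxin, which repairs over-oxidised peroxiredoxins. It ran from 49.2 to 76.4 CPM in normal and from 48.7 to 67.9 CPM in high glucose (log2 -0.19 ± 0.08, adjusted p = 0.153). For both genes the media overlapped over most of their range.

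Of the other 2 control genes, Keap1 ran from 65.85 to 96.4 CPM in normal and from 65.9 to 80.8 CPM in high glucose (log2 -0.18 ± 0.07, edgeR adjusted p = 0.0846). It passed with all 24 files in the fit (adjusted p = 0.0237), where the identical file counts as 2 libraries, 1 in HG2 and 1 in HG3. It also passed without NG3 replicate 2, its lowest normal-glucose library (adjusted p = 0.0447). Without NG2 replicate 2 the log2 change of Keap1 was -0.15. Bach1 ran from 16.7 to 26.1 CPM in normal and from 18.02 to 30.2 CPM in high glucose, with 6 of 10 high-glucose libraries above every normal-glucose library (log2 0.26 ± 0.10, adjusted p = 0.118). The lowest high-glucose library of Bach1 was HG3 replicate 3. With 1 library left out its log2 change ran from 0.16 (without HG3 replicate 1) to 0.34 (without HG3 replicate 3). For the 6 genes that did not pass, a p above the threshold does not show that the levels were alike.

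**Figure D2:**
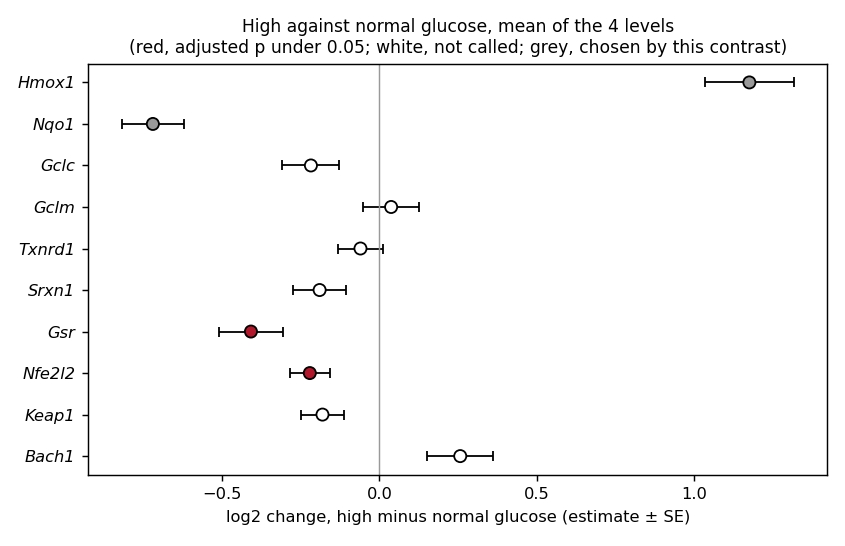
Log2 change between high and normal glucose for the 10 genes, as the estimate over the 4 treatment levels with its standard error. Gsr and Nfe2l2 are filled as passed, 6 genes are open, and the grey Hmox1 and Nqo1 were chosen by this contrast.

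**Figure D3:**
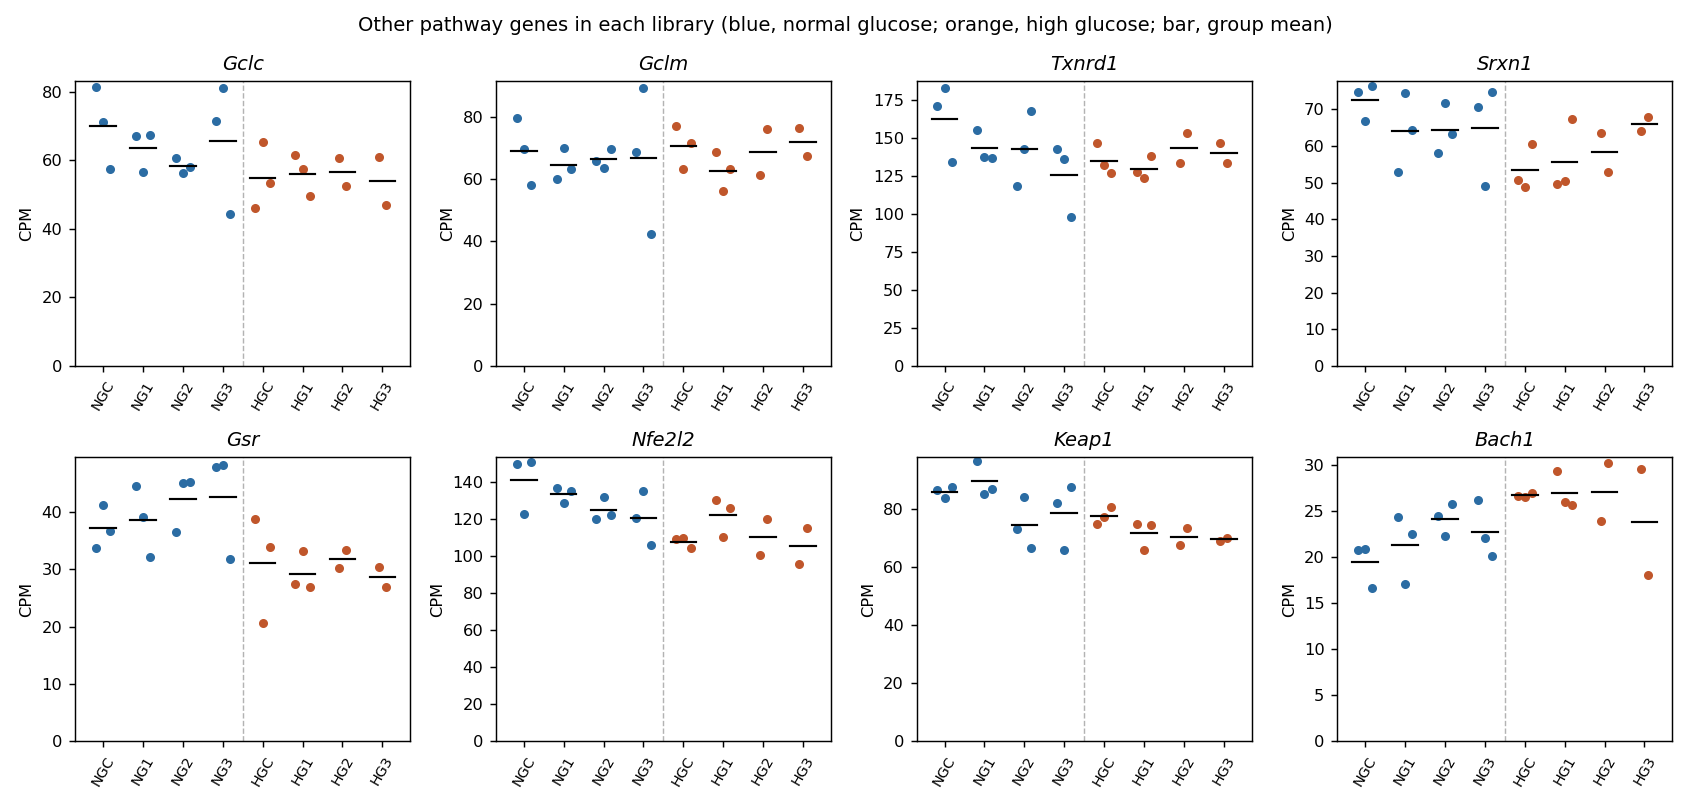
CPM of the other 8 genes in each of 22 libraries by group, with 1 point per library and a bar at the group mean. The points of the media overlap for all 8 genes, and NG3 replicate 3 is the lowest normal-glucose library for Gclc, Gclm, Txnrd1, Gsr and Nfe2l2.

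Between the control groups alone, none of the 8 genes passed edgeR's test, beside 2.28% of all tested genes (1.89% higher, 0.392% lower). Among the 8, 4 had an unadjusted p under 0.05, beside 1585 of all 13281 tested genes. DESeq2 called 1 of the 4, Nfe2l2 (adjusted p = 0.0489). The values were -0.39 ± 0.12 on the log2 scale for Nfe2l2 (edgeR adjusted p = 0.0783) and -0.45 ± 0.16 for Srxn1 (adjusted p = 0.153). They were 0.46 ± 0.20 for Bach1 (adjusted p = 0.311) and -0.35 ± 0.17 for Gclc (adjusted p = 0.404). Nfe2l2 also passed without NGC replicate 2 (adjusted p = 0.0497). Gsr stood at -0.26 ± 0.19 in the controls (edgeR adjusted p = 0.651). With 1 library left out, its control value ran from -0.45 (without HGC replicate 1) to -0.03 (without HGC replicate 2). Among the treated groups, which share no library with the controls, Gsr fell by 0.46 ± 0.12 (adjusted p = 0.0128) and the other 7 genes did not pass, beside 8.1% of all tested genes (4.69% higher, 3.41% lower). Gsr did not pass there without HG2 replicate 1 (adjusted p = 0.0604) or without HG3 replicate 3 (adjusted p = 0.0570). Nfe2l2 stood at -0.16 ± 0.08 in the treated groups (adjusted p = 0.193). Whether the glucose effect differed between controls and treated cells is the same contrast as the interaction given below, which no member passed.

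Further genes of the pathway were read from lists of its known targets and partners, in the same comparison over all levels. Among 13 tested genes of glutathione transfer and thioredoxin 3 fell, none rose and 10 had a log2 change below 0, with a median of -0.23. Over all tested genes 4.38% fell and 5.71% rose. Gstm1, a glutathione transferase, fell from 92.0 ± 13.7 to 70.2 ± 9.96 CPM (log2 -0.42 ± 0.08, edgeR adjusted p = 0.000208). Gstp1, another transferase, fell by 0.53 ± 0.14 and Mgst3, a microsomal one, by 0.45 ± 0.14 on the log2 scale. Gstm1 and Gstp1 have close relatives in the genome, which makes their counts uncertain. Gstm1 and Gstp1 passed in all 30 alternative fits, while Mgst3 passed in 23, with its highest adjusted p (0.113) without HG2 replicate 1. Prdx1, a peroxiredoxin, stood at -0.17 ± 0.06 (adjusted p = 0.0610), and Slc7a11, the cystine importer, at -0.31 ± 0.34 with 2.98 ± 1.12 CPM in normal glucose (adjusted p = 0.645). Between the controls alone none of the 13 passed, beside 2.28% of all tested genes, 6 had a log2 change above 0 and the median was -0.03. In the treated groups 4 fell, Gstm1, Gstp1, Mgst3 and Prdx1, beside 3.41% of all tested genes, and the median was -0.24. Gstm1 stood at -0.18 ± 0.15 in the controls (edgeR adjusted p = 0.686) and at -0.50 ± 0.09 in the treated groups (adjusted p = 0.000287). Gstp1 stood at 0.0038 ± 0.25 in the controls and at -0.70 ± 0.16 in the treated groups (adjusted p = 0.0041). Mgst3 stood at -0.03 ± 0.26 in the controls and at -0.59 ± 0.16 in the treated groups (adjusted p = 0.0151). By dose label, 1 of the 13 fell at label 2, Gstm1, and 1 at label 3, Gstp1 (-1.56 ± 0.30, adjusted p = 0.00372). Of all tested genes 0.151% and 0.241% fell there. Prdx1 stood at 0.04 ± 0.11 in the controls and at -0.24 ± 0.07 in the treated groups (adjusted p = 0.0245), a call lost without NG1 replicate 1, NG2 replicate 1, HG2 replicate 1 or HG3 replicate 1 or 3. The call of Mgst3 there was lost without NG2 replicate 1, HG2 replicate 1 or HG3 replicate 3. The difference between treated and control cells passed for no gene of any of the 7 pathway lists.

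Of 6 genes of NADPH supply none passed, beside 10.1% of all tested genes, with log2 changes from -0.13 (Pgd) to 0.17 (Idh1) and a median of 0.04. Between the controls alone 1 of the 6 rose, Idh1, the cytosolic NADP-dependent isocitrate dehydrogenase (log2 0.53 ± 0.14, edgeR adjusted p = 0.0218). In the treated groups it stood at 0.05 ± 0.08 (adjusted p = 0.806). In the controls 1.89% of all tested genes rose, and 1 call among 6 genes is not read as a result about the list. The Idh1 call was lost without NGC replicate 1 or 2 and without HGC replicate 1, 2 or 3 (highest adjusted p 0.168), and the difference between treated and control cells did not pass (adjusted p = 0.303). Of 10 genes of detoxification and export 1 fell, beside 4.38% of all tested genes, and none rose, with a median of -0.04. That gene was Aldh3a1, an aldehyde dehydrogenase, which fell from 7.22 ± 1.94 to 4.65 ± 1.56 CPM (log2 -0.65 ± 0.20, edgeR adjusted p = 0.0326) and passed in 17 of 30 alternative fits, with its highest adjusted p (0.0995) without HG3 replicate 1. Aldh3a1 stood at -0.10 ± 0.37 in the controls and at -0.84 ± 0.24 in the treated groups (edgeR adjusted p = 0.0235). Cbr3, a carbonyl reductase, stood at -0.44 ± 0.15 over all levels (adjusted p = 0.0505). With 10 genes in that list, 1 call is not read as a result about it.

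Of 11 tested partners and regulators of NRF2, 2 rose, beside 5.71% of all tested genes, and none fell, with a median of 0.05. Both encode small MAF proteins, which pair with NRF2 or BACH1 on the response element. Mafg rose from 91.4 ± 13.9 to 114.6 ± 11.0 CPM (log2 0.31 ± 0.08, edgeR adjusted p = 0.00845) and passed in all 30 alternatives. Maff rose by 0.36 ± 0.11 and passed in 28, with adjusted p = 0.0540 without HG2 replicate 2. Sqstm1, an autophagy receptor that binds KEAP1, stood at 0.09 ± 0.06 (adjusted p = 0.445). Between the controls alone none of the 11 passed, beside 2.28% of all tested genes. Maff stood there at 0.02 ± 0.20 and Mafg at 0.26 ± 0.15. In the treated groups 2 rose, beside 4.69% of all tested genes. These were Maff (0.47 ± 0.12, edgeR adjusted p = 0.0114) and Mafg (0.33 ± 0.09, adjusted p = 0.0240).

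On the side of heme and iron, 5 of 24 tested genes rose, beside 5.71% of all tested genes, and none fell, with a median of 0.02. Tfrc, the transferrin receptor that takes up iron, rose from 52.9 ± 6.89 to 94.4 ± 15.3 CPM (log2 0.85 ± 0.07, edgeR adjusted p = 2.26e-11). Steap3, a ferrireductase of endosomes, rose by 0.63 ± 0.11, and Flvcr2, a transporter gene at 2.73 ± 0.813 CPM in normal glucose, by 0.99 ± 0.26. These 3 passed in all 30 alternative fits. Slc11a2, an iron transporter, rose by 0.28 ± 0.09, and Pcbp1, an RNA-binding protein that also carries iron, by 0.19 ± 0.06, and these passed in 22 and 17 of the 30. Their highest adjusted p was 0.0989 without HG2 replicate 1 and 0.251 without HG3 replicate 3. The ferritin genes Fth1 (-0.06 ± 0.05) and Ftl1 (0.44 ± 0.19, adjusted p = 0.170) did not pass, and both have processed copies in the genome that make their counts uncertain. Between the controls alone none of the 24 passed, beside 2.28% of all tested genes, and the median was 0.01. In the treated groups 3 rose, Tfrc, Steap3 and Pcbp1, and 1 fell, Fech, the ferrochelatase that puts iron into heme. Over all tested genes 4.69% rose and 3.41% fell there. Tfrc stood at 0.42 ± 0.14 in the controls (edgeR adjusted p = 0.132) and at 0.99 ± 0.09 in the treated groups (adjusted p = 6.13e-11), a difference that did not pass (0.57 ± 0.17, adjusted p = 0.227). Steap3 stood at 0.65 ± 0.21 (adjusted p = 0.115) and 0.62 ± 0.13 (adjusted p = 0.00163). Fech stood at 0.04 ± 0.13 in the controls and at -0.25 ± 0.08 in the treated groups (adjusted p = 0.0429), and passed there in 11 of 25 alternatives. Pcbp1 passed there in 20 of 25, with its highest adjusted p (0.211) without HG3 replicate 3. Blvra and Blvrb, the biliverdin reductases that act after heme oxygenase, stood at -0.07 ± 0.08 and -0.20 ± 0.08 (adjusted p = 0.670 and 0.107).

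**Figure D4:**
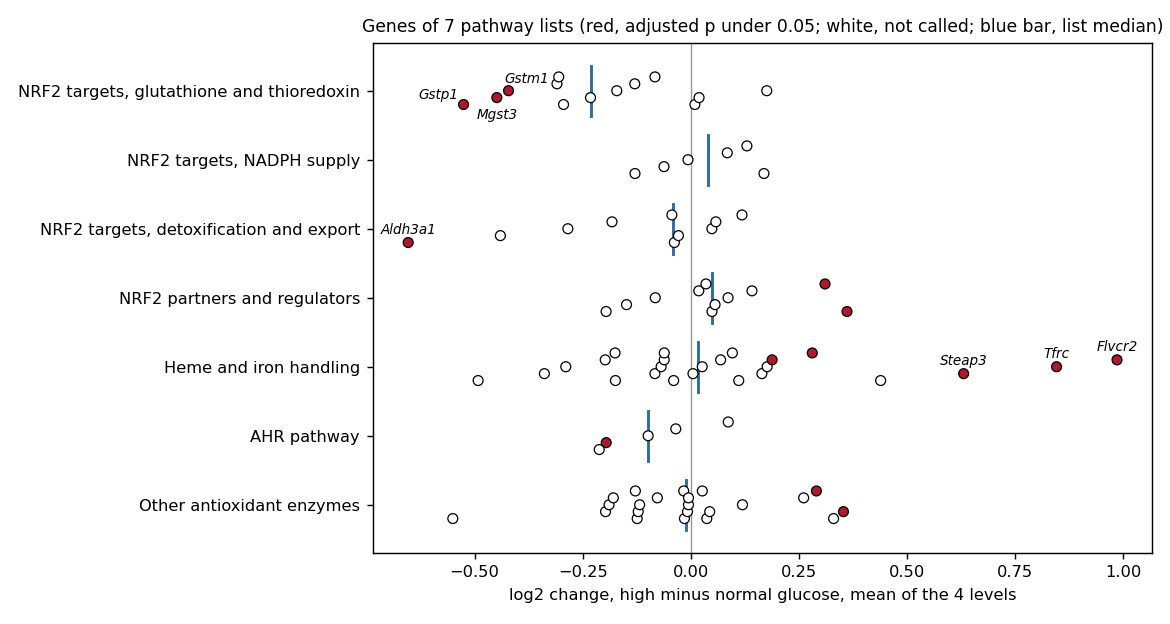
Log2 change between high and normal glucose for each tested gene of 7 pathway lists, with 1 point per gene and a bar at the list median. Genes that passed lie below 0 in the glutathione, detoxification and AHR lists and above 0 among the NRF2 partners, the heme and iron genes and the other antioxidant enzymes.

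Mogroside V was compared with the control of each medium, as the mean of the 3 dose labels, for all 10 members, since the choice of members did not use this contrast. In normal glucose none of the 10 passed, beside 0% of all 13281 genes in edgeR, 1120 at an unadjusted p under 0.05 and 62 genes in DESeq2. The lowest p among the members was that of Txnrd1 (log2 -0.25 ± 0.11, adjusted p = 0.499). Hmox1 stood at -0.17 ± 0.23 and Nqo1 at 0.19 ± 0.15. The sign of the Hmox1 value rested on NGC replicate 1, without which it was 0.41. In high glucose none of the 10 passed either, beside 0% of all genes in edgeR, 679 at an unadjusted p under 0.05 and 0 in DESeq2. Hmox1 stood at -0.37 ± 0.21 (adjusted p = 0.979) and Nqo1 at -0.10 ± 0.16 (adjusted p = 0.990), and the other 8 lay between -0.14 (Keap1) and 0.17 (Srxn1).

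**Figure D5:**
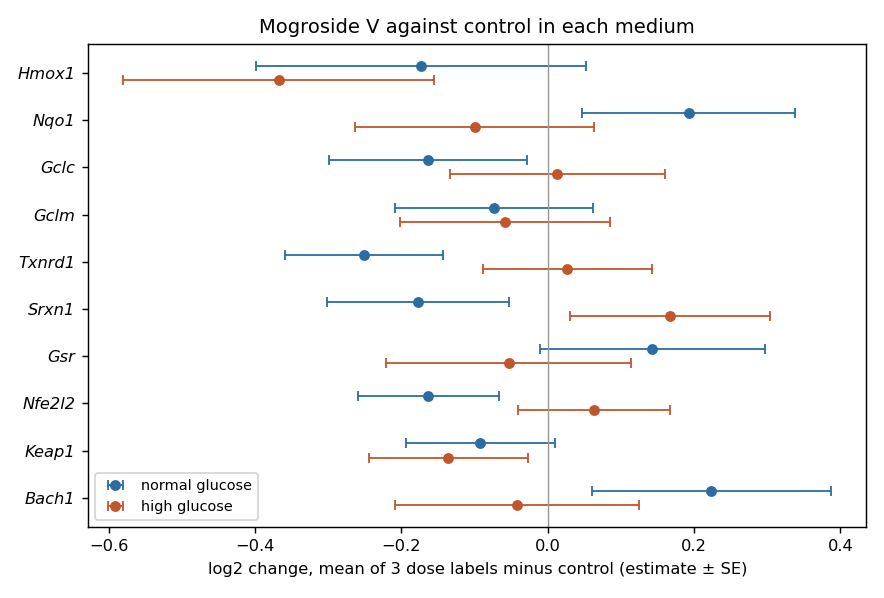
Log2 change between mogroside V, as the mean of 3 dose labels, and the control in normal and in high glucose, with standard errors, for the 10 genes. All points lie between -0.37 and 0.22, and no gene passed in either medium.

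By dose label, Hmox1 in high glucose had the order HG2 (51.1 ± 6.22 CPM), HGC (48.4 ± 5.52), HG3 (35.5 ± 2.44) and HG1 (28.9 ± 2.53). HG2 and HGC overlapped, while HG3 lay below both and HG1 below HG3 with no overlap. How many of all genes show such gaps was not counted. Against HGC the log2 changes were -0.74 ± 0.26 for HG1 (edgeR adjusted p = 0.449, unadjusted p = 0.00794), 0.08 ± 0.28 for HG2 (adjusted p = 0.995) and -0.44 ± 0.29 for HG3 (adjusted p = 0.999). The dip at dose label 1 was thus not called. The 4 normal-glucose groups of Hmox1, with means of 15.4 to 19.7 CPM, overlapped.

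Nqo1 in normal glucose had means of 33.4 ± 2.90 CPM in NGC, 34.5 ± 4.65 in NG1, 38.0 ± 2.75 in NG2 and 42.6 ± 2.99 in NG3. NG3 lay above NGC with no overlap, but NG3 minus NGC was 0.35 ± 0.18 on the log2 scale and did not pass (edgeR adjusted p = 0.488). In high glucose the means were 20.7 to 23.6 CPM. There HG3 (23.3 and 23.8 CPM) lay just above HG2 (18.2 and 23.2 CPM), while every other pair of groups overlapped. Treated groups also lay apart from their control for Bach1 (NG2), Nfe2l2 (HG1), Srxn1 (HG3) and Keap1 (HG2 and HG3). How often groups of 2 or 3 libraries lie apart over all genes was not counted, so nothing is read from such gaps. Txnrd1 stood at -0.37 ± 0.13 in NG3 against NGC (adjusted p = 0.254), where NG3 replicate 3 had the lowest Txnrd1 level of all libraries. None of the 10 members passed in any of the 6 comparisons of a dose label with its control, or in any alternative fit of them. Beside this, edgeR called 0% of all genes for NG1, 0.00753% for NG2 (1 gene, Tmtc1), 0.128% for NG3, and 0% for each of HG1, HG2 and HG3. At an unadjusted p under 0.05 there were 648 genes for NG1, 1033 for HG1, 710 for HG2 and 599 for HG3, and DESeq2 called 0, 6, 0 and 0 genes in these 4 comparisons. The count for NG3, 17 genes, was 0 without NG3 replicate 3, NGC replicate 1 or NGC replicate 2, and 182, 106 and 45 without NG3 replicate 2, NG3 replicate 1 and NGC replicate 3. The single gene of NG2 was not called without NGC replicate 1, 2 or 3 or NG2 replicate 2 or 3.

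The difference of the mogroside V effects between the media, which is also the difference of the glucose effect between treated and control cells, did not pass for any of the 10 members. Beside this, edgeR called 0.00753% of all genes, which was 1 gene, Celf4. It was -0.19 ± 0.31 on the log2 scale for Hmox1 (edgeR adjusted p = 0.911), -0.29 ± 0.22 for Nqo1 (0.770), 0.34 ± 0.18 for Srxn1 (0.635) and 0.28 ± 0.16 for Txnrd1 (0.661). The Hmox1 value was -0.78 without NGC replicate 1.

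Within a medium, Hmox1 was set against each of the other 9 members over libraries (log2 of CPM + 1), which leaves the difference between the media out. Of these 18 relations none passed a permutation test after adjustment, and none had an unadjusted p of Pearson's r under 0.05. With Nqo1, r was 0.34 (rho 0.48, permutation p = 0.274 and 0.121, adjusted p = 0.902 and 0.905) over 12 normal-glucose libraries. It was -0.24 (rho -0.22, permutation p = 0.501 and 0.534, adjusted p = 0.902 and 0.905) over 10 high-glucose libraries. Without the 2 libraries farthest from the median Hmox1 level r was 0.56 and -0.06. The largest in size was that with Nfe2l2 in high glucose, with r = -0.52 (rho -0.62, permutation p = 0.126 and 0.0618, adjusted p = 0.902 and 0.905, and r = -0.45 without 2 libraries). Taken instead on deviations from the group means, which also leave the dose labels out, 2 of the 18 relations passed for Pearson's r, both over the 10 high-glucose libraries. With Nqo1, r was -0.91 (rho -0.89, permutation p = 0.0002 and 0.00107, adjusted p = 0.0036 and 0.0193, and r = -0.84 without the 2 libraries HGC replicate 3 and HG1 replicate 3). With Srxn1, r was 0.83 (rho 0.77, permutation p = 0.00351 and 0.0126, adjusted p = 0.0316 and 0.114, and r = 0.70 without those 2 libraries), so that the adjusted p of rho did not pass. In normal glucose the relation with Nqo1 had the other sign (r = 0.52, rho 0.62, permutation p = 0.0828 and 0.0359, adjusted p = 0.497 and 0.215). Deviations sum to 0 within a group, and in HG2 and HG3 the 2 libraries mirror each other, so these points are not independent and the permutation p-values are too small.

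Over all 22 libraries, the genes most like Hmox1 among 10191 with a mean of at least 5 CPM were Atf4 (Pearson's r of log2 values 0.91), the transcription factor of the integrated stress response, Scpep1 (0.89), a serine carboxypeptidase gene, and Dnajb6 (0.88), a chaperone gene. Those most opposed were Cdk1 (-0.89), the mitotic kinase, Card10 (-0.89) and Far1 (-0.88). Nqo1 was most like Ncaph (0.88), a condensin subunit, Sh2b3 (0.86) and Ppm1b (0.86), and most opposed to Phldb2 (-0.88), Aebp1 (-0.88) and Cpeb1 (-0.86). These points share the media, the libraries and their depth, so the values are a description of these libraries.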

How the data were processed

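Polyadenylated RNA was sequenced. Per the labels, libraries were made with the VAHTS Universal V8 kit, and the authors deposited unnormalized read counts per gene, 1 file per library. Build GRCm39 and the tools STAR 2.7.5c, HTSeq 1.99.2, FastQC 0.11.9 and DESeq2 3.16 are listed in the submitters' processing notes, without a strand setting, so overlapping antisense genes cannot be told apart. The 5 summary lines of a file (reads outside genes 14.4 to 20.6%, aligned to several places 16.5 to 18.9%, ambiguous 3.46 to 4.15% of a library's reads) stayed out of totals and tests. Symbols were found for 51948 of 56941 IDs.

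Counts of 22 libraries were fitted together by robust quasi-likelihood F tests on 8 group means (edgeR 4.0.16 in R 4.3.3), after filterByExpr and TMM scaling. Residual degrees of freedom were 14, and the common BCV (biological coefficient of variation) was 0.149. P-values were adjusted over 13281 genes per comparison. CPM use TMM factors, except marker and globin sums, which use gene totals. The standard error is the log2 change divided by the square root of F. A self-test on simulated counts changed 200 of 13281 genes between the media. In the comparison over all levels it recovered 40% of changes of 1.25-fold, the smallest size drawn, and 68% of 1.5-fold. It recovered 92% of changes of 2-fold and 90% of 3-fold. The 6 members that did not pass had fitted folds from 0.86 (Gclc) to 1.195 (Bach1). No change that small was drawn, so the self-test gives no share for them. Relations used 100000 permutations, two-sided.

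All 10 members are named. From each pathway list (NRF2 targets in 3 lists, NRF2 partners, heme and iron, AHR, other antioxidant enzymes) up to 4 passed genes in each direction are named. Pcbp1, other genes named there without a call, and the statements on single markers, were chosen after their values were seen. Members and lists were chosen with earlier results of these data known. Alternatives were DESeq2 1.42.0, RLE factors, no low-count filter, fewer groups in the fit, a replicate block, each library left out, 2 libraries that stood apart left out, and 3 treatments of the identical file.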

Additional observations from a re-analysis of the deposited data

How the results depend on the processing

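Over 30 alternatives the glucose difference stayed between 1.12 and 1.32 on the log2 scale for Hmox1 and between -0.79 and -0.67 for Nqo1. For the 8 other members, leaving out 1 library gave 1 to 3 calls over all levels, 0 to 1 in the controls and 0 to 1 in the treated groups. DESeq2 gave 1 in the controls and all 24 files gave 2 in the treated groups, with Keap1 added (edgeR adjusted p = 0.0362). With all 24 files the identical file counts as 2 libraries, so that p is too small. With the 2 libraries that stood apart (HGC replicate 2 and NG3 replicate 3) left out, Gclc passed over all levels (log2 -0.30, edgeR adjusted p = 0.00646). Among the 22 libraries NG3 replicate 3 had the smallest shares of reads outside genes (14.4%) and of mitochondrial gene counts (5.43%). It also had the largest share of reads aligned to several places (18.9%). The part of this in its gene levels was not tested. Where 1 library was left in HG2 or HG3, it was assumed to vary like the other groups. Whether the replicate numbers pair the libraries is not labelled. Over all genes the correlation of deviations from the group means exceeded 0.1 in 2 of 70 same-numbered pairs (median 0.00792). It did so in 8 of 141 pairs with other numbers (median -0.00412). A weak pairing, or one that touches few genes, would not show in these values. With the replicate number as a block, 1365 genes passed over all levels in place of 1340, HG1 against HGC gave 2 genes in place of 0, and the other counts of calls stayed within 1.5 times. The comparison over all levels and the interaction use all 8 groups, so fewer groups could not be fitted there.

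Values that changed sign were those of members that passed in neither fit. Without the 2 libraries that stood apart these were Gclm (-0.0291) and Txnrd1 (-0.0300) in the treated groups, Gclm under mogroside V in normal glucose (0.0053), Nqo1 under mogroside V in high glucose (0.0408) and Gclm in the interaction (-0.14). With all 24 files they were Txnrd1 in the treated groups (-0.0022) and Gsr under mogroside V in high glucose (0.0157), and with the replicate block Gclc there (-0.0083). With 1 library left out, Gclm ran from -0.0134 to 0.114 over all levels, from -0.0846 to 0.145 in the controls and from -0.0294 to 0.141 in the treated groups, where Txnrd1 ran from -0.0303 to 0.0538. Under mogroside V in normal glucose Gclm ran from -0.185 to 0.0446 and Hmox1 from -0.42 to 0.41. Under mogroside V in high glucose Nqo1 ran from -0.233 to 0.0403, Gclc from -0.0995 to 0.161, Gclm from -0.133 to 0.0091, Txnrd1 from -0.0168 to 0.0898, Gsr from -0.283 to 0.139 and Bach1 from -0.178 to 0.059. In the interaction Hmox1 ran from -0.782 to 0.0486 and Gclm from -0.104 to 0.126.

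Counts over all genes with 1 library left out were 958 to 1597 over all levels, 163 to 258 in the controls (163, 184 and 166 without NGC replicate 1, NGC replicate 2 and HGC replicate 2, and 303 with all), and 654 to 1277 in the treated groups (654 and 713 without HG2 replicate 1 and HG3 replicate 3, and 1076 with all). They were 0 to 10 for mogroside V in normal glucose, 0 to 4 for the interaction (0 without NGC replicate 2 or 3, HGC replicate 2, HG2 replicate 1 or HG3 replicate 3), 0 to 1 for NG2, 0 to 182 for NG3 and 0 to 3 for HG1 against their controls. In normal glucose mogroside V gave 62 genes with DESeq2, 62 with no low-count filter, 4 without the 2 libraries that stood apart and 3 with each treatment of the identical file. In high glucose it gave 5 with no filter. The interaction gave 32 with DESeq2, 42 with no filter, 6 with all 24 files, 6 with the identical file in HG2 and 3 with it in HG3. NG2 gave 13 with DESeq2, 21 with no filter, 17 without the 2 libraries and 2 with its own groups. NG3 gave 117 with DESeq2, 5 with RLE factors, 186 with no filter, 0 without the 2 libraries, 53 with all 24 files and 0 with its own groups. HG1 gave 6 with DESeq2, 50 with no filter and 14 with its own groups, and HG2 and HG3 gave 2 and 3 with no filter. The cause of these differences was not tested. Of the 18 relations, 2 passed on deviations from group means (Nqo1 and Srxn1 in high glucose) and 0 under the other 3 alternatives.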

Other observations

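Of the 22 tested enzymes in the list of other antioxidant genes, 2 rose in high glucose over all levels, none fell and 20 did not pass, with a median of -0.01. Of all tested genes 10.1% passed in this comparison, 5.71% higher, so this share is near that of all genes. Prdx5, a peroxiredoxin of mitochondria and peroxisomes, rose from 259 ± 18.9 to 319 ± 19.8 CPM (log2 0.29 ± 0.06, edgeR adjusted p = 0.000282) and passed in all 30 alternative fits. Glrx2, a mitochondrial glutaredoxin, rose by 0.35 ± 0.10 and passed in 28, with adjusted p = 0.0559 without HG3 replicate 1. Between the controls alone 1 of the 22 rose, Prdx5 (0.39 ± 0.11, edgeR adjusted p = 0.0336), beside 1.89% of all tested genes. It passed there in 8 of 15 alternative fits. Glrx2 stood at 0.04 ± 0.18 in the controls and at 0.46 ± 0.11 in the treated groups (adjusted p = 0.00685). Over all levels the superoxide dismutases Sod1 (-0.12 ± 0.07) and Sod2 (0.04 ± 0.08), the catalase gene Cat (-0.12 ± 0.10) and Gpx1 (-0.02 ± 0.07) did not pass.

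The aryl hydrocarbon receptor AHR is a second known activator of Nqo1. Of the 5 tested genes of its list 1 fell, none rose and 4 did not pass, with a median of -0.10, beside 4.38% of all tested genes lower. With 5 genes, 1 call is not read as a result about the list. Cyp1b1, a cytochrome P450 that AHR induces, fell from 179 ± 12.9 to 158 ± 16.2 CPM (log2 -0.20 ± 0.06, edgeR adjusted p = 0.0349) and passed in 18 of 30 alternatives, with its highest adjusted p (0.184) without HG2 replicate 1. Cyp1b1 stood at -0.08 ± 0.12 in the controls and at -0.23 ± 0.07 in the treated groups (edgeR adjusted p = 0.0374). Over all levels Ahr itself stood at -0.21 ± 0.08 (adjusted p = 0.0719) and Tiparp, another AHR target, at 0.09 ± 0.10. Cyp1a1, Cyp1a2 and Ahrr were too low to be tested.

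The library deposited both as HG2 replicate 3 and as HG3 replicate 2 carries a high-glucose title in either place, although its dose label is unknown. It was left out of the comparisons, other than the alternatives that are named as using it. It held 44.6 CPM of Hmox1, above every normal-glucose library, and 15.5 CPM of Nqo1, below every other library. Its ratio of Hmox1 to Nqo1 reads was 2.88 (141 and 49 reads). The titles of this library lie among the groups by which Hmox1 and Nqo1 were chosen, so these values only describe it. Gsr stood at 37.7 CPM, within the range of both media. Nfe2l2 stood at 99.4 CPM and Keap1 at 62.0 CPM, each below every normal-glucose library. Bach1 stood at 26.3 CPM, beside a normal-glucose maximum of 26.1 CPM. The CPM of this library used TMM factors from all 24 files and the others from 22, so that margin is too small to read.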
